A study of Mus musculus with 6 samples.

Results

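The genes described are the hypoxia-inducible factors and a set of their regulators and targets in GL261, an established mouse glioma cell line. They are Hif1a, Epas1, Arnt, Vegfa, Adm, Car9, Egln1, Egln2, Egln3 and Bnip3, chosen by name, and all 10 were found among the 58328 genes of the deposited transcript models. The cells received 1 uM sodium chloride or 1 uM sodium propionate and gave total RNA 4 h later. Sodium chloride is the control that carries the same cation, propionate is a short-chain fatty acid, and the labels name no other agent, genotype or oxygen condition. There were 3 libraries per salt, called chloride 1, 2 and 3 and propionate 1, 4 and 5 after the sample titles, and single values follow this order throughout. Whether they are separate cultures is not stated in the labels, so a p-value covers the spread of these 6 libraries alone, and that spread may be technical. The unit of the dose was taken as the labels give it and was not checked.

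Hypoxia-inducible factors are pairs of an oxygen-regulated alpha subunit, such as the products of Hif1a and Epas1, and a constant partner, the product of Arnt. In the presence of oxygen, the prolyl hydroxylases encoded by Egln1, Egln2 and Egln3 mark the alpha subunit for recognition by the von Hippel-Lindau protein and for degradation, so the amount of factor is set largely at the protein level, which RNA levels do not measure. A stable pair binds DNA at the hypoxia response element and raises transcription of target genes. Among these are Vegfa, the main angiogenic growth factor, Adm, which encodes the vasodilating peptide adrenomedullin, Car9, a membrane carbonic anhydrase that acidifies the outside of the cell, and Bnip3, a mitochondrial outer membrane protein that promotes mitophagy. Egln1 and Egln3 are targets of the factors as well as their regulators. In gliomas the pathway is known for its part around necrotic zones and in new vessel growth.

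A pair of coding exons carries the differences between the transcript models of Vegfa and of Hif1a described below, and their sequences are shown for that reason. The Vegfa exon is one that alternative splicing includes or skips. It lies at chr17:46020991-46021122 on the minus strand of mm10 and encodes a stretch through which the longer Vegfa proteins bind heparin and neuropilin. The whole exon of 132 bases is in capitals, from GENCODE M21:
Vegfa variable exon: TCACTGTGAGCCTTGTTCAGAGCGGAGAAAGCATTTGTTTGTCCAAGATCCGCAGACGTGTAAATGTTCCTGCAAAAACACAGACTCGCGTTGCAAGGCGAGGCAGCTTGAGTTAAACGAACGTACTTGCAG
The Hif1a exon is exon 11 of 15 in the model Hif1a-201, of 165 bases. Its first bases are shown at chr12:73941688-73941749 on the plus strand. The 42 bases in capitals are absent from a shorter form of the exon that starts at 73941730:
Hif1a exon 11, start: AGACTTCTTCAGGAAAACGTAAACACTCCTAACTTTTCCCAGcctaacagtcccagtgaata

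The core of the hypoxia response element, ACGTG or GCGTG on either strand, was searched in promoter windows of RefSeq (GRCm38.p6), which hold 250 bases before and 50 after a gene's start. Of the 9 genes with a window, 8 had a match in the window of their first listed start. Vegfa had none there and 2 in the window of its second listed start, which lies inside the gene. Egln2 had the most in its first window, 6, ahead of Bnip3 with 5. Hif1a had 3 and Arnt 1. The matches of Egln2, Hif1a and Arnt are not printed. Among all 32851 windows of 300 bases, 43.8% had a match, so a match is common. The matches of 5 targets or regulators are shown, with the core or its reverse complement in capitals, because these genes stood at levels from 0 to over 30 TPM in the libraries:
Adm, chr7:110627557-110627581 (+): tagaagcaagCACGCtggagaggga
Adm, chr7:110627593-110627617 (+): caaatctgacCACGCccaccgtccg
Car9, chr4:43506998-43507022 (+): atttccgatgCACGTacagcccgtc
Egln1, chr8:124949366-124949390 (-): ccggcccgccGCGTGcgcgcggccc
Egln1, chr8:124949308-124949332 (-): gccgtggtgtACGTGcagcgcgcgc
Egln3, chr12:54204089-54204113 (-): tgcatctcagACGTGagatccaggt
Bnip3, chr7:138909591-138909633 (-): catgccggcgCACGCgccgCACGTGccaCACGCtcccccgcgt
Bnip3, chr7:138909527-138909551 (-): ctccgccgccGCGTGcgtcccgccc
The Car9 match begins 18 bases before the RefSeq start, those of Adm 90 and 54 bases before it, those of Egln1 126 and 68, and that of Egln3 229. Bnip3 had 5 matches between 117 and 35 bases before its start, and in the run CACGTG a match on each strand overlaps the other. The stricter core ACGTG, on either strand, was present in 19.6% of all windows. The letters describe the windows and were not tested for binding.

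The libraries held 9.15 to 11.3 Gb of bases counted by StringTie. Propionate 4 and propionate 5 held 11.3 and 11.1 Gb, and all the others 9.15 to 9.47 Gb. Depth thus differed in part with the salt, and its part in the values was not tested. Transcript models with any coverage numbered 71192 to 82370. Chloride 3 (71452) and propionate 1 (71192) had fewer than the other 4 libraries. Levels are scaled TPM, relative transcript abundances corrected for length and scaled between libraries. Of 8 marker genes of glioma and neural progenitor cells, 7 reached a mean of at least 1 TPM, among them Vim at 2998 ± 208 TPM (SD, n = 3) with chloride and 3246 ± 208 with propionate, and Nes, which encodes nestin, at 339 ± 9.12 and 348 ± 29.6 TPM. Gfap, an astrocyte filament, was low at 1.14 ± 0.201 and 0.731 ± 0.197 TPM. The 8 endothelial markers summed to 0.0853 to 0.182 TPM in chloride and 0.0375 to 0.360 in propionate, with Kdr and Emcn at 0. The 8 macrophage and microglia markers summed to 4.72 to 6.33 TPM in chloride and 5.14 to 6.39 in propionate, with Itgam and Adgre1 at 0. Most of that sum was Cd68, at 3.90 ± 0.741 and 3.74 ± 0.437 TPM, and Csf1r, at 1.44 ± 0.213 and 1.68 ± 0.315 TPM. The 8 fibroblast and pericyte markers summed to 211 to 223 TPM in chloride and 199.6 to 234 in propionate, most of it Col1a1 and Acta2. The 8 neuronal markers summed to 116 to 119 TPM and 112 to 125, with Rbfox3, Snap25 and Nefl at 0. Nearly all of it was Tubb3, at 78.5 ± 0.498 and 80.0 ± 8.60 TPM, and Map2, at 39.0 ± 1.00 and 38.1 ± 3.32 TPM.

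No gene of the set passed the test between the salts. A difference was called at an adjusted p under 0.05 in limma, adjusted over the 15507 genes whose mean reached 1 TPM, and 0.00645% of those genes were called, 0.00645% as higher and 0.0% as lower. Of the 10 genes, 8 were tested and 0 were called, and 0 had an unadjusted p under 0.05, where 5.14% of all tested genes did. The groups overlapped for all 8, whereas 11.7% of all tested genes had groups without overlap. By sign 4 were higher in propionate and 4 lower, and their median log2 difference was 0.0084, beside 0.0054 over all genes. Their log2 differences are on the log2(TPM + 1) scale, propionate minus chloride, on which the pseudocount shrinks differences of weakly expressed genes.

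**Figure D1:**
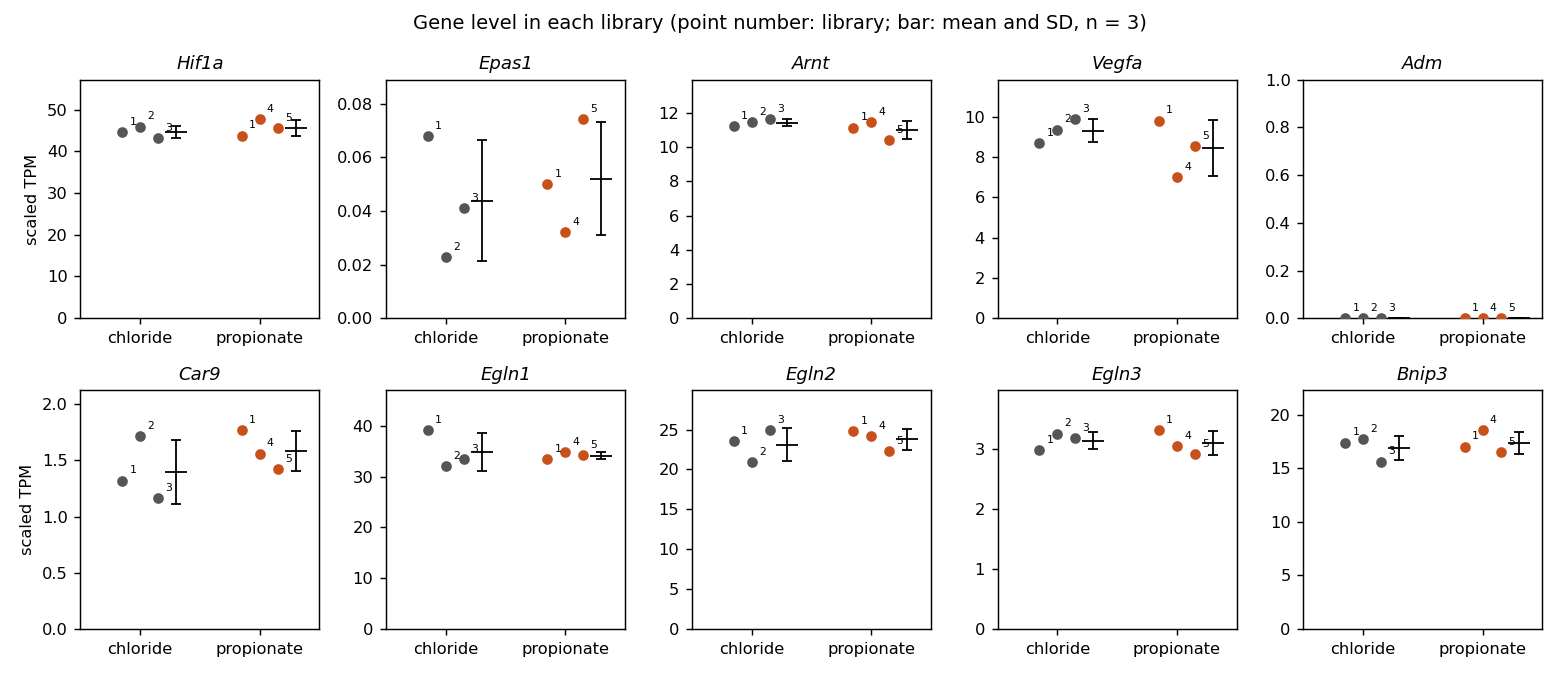
Scaled TPM (y axis, linear from 0, own scale per panel) of each of the 10 genes in the 3 chloride (grey) and 3 propionate (orange) libraries; points are libraries with their number and bars are mean and SD (n = 3). Points of both salts lie over each other in every panel, and Adm is at 0 in all 6 libraries.

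Hif1a was by level the leading gene of the set and the main alpha subunit. Hif1a (ENSMUSG00000021109, chr12:73901375-73948171, plus strand) stood at 44.7, 45.9 and 43.1 TPM in the chloride libraries and at 43.7, 47.6 and 45.6 TPM in the propionate libraries. Chloride 3 was the lowest and propionate 4 the highest, and the groups overlapped. The means were 44.6 ± 1.40 and 45.7 ± 1.95 TPM (SD, n = 3), and the log2 difference was 0.034 (SE 0.059, 95% interval -0.11 to 0.17, limma adjusted p = 0.951). Between 9798 and 13144 reads, estimated from coverage, stood behind each value. It shares its assembled locus with Snapc1, a subunit of the small nuclear RNA activating complex, at 6.86 to 7.83 TPM, and overlaps Gm15283 on the other strand, at 0.597 to 1.26 TPM. No source used here gives the strand setting of StringTie, so reads of genes on opposite strands may not be told apart.

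Epas1, which encodes the other widely studied alpha subunit, was at the limit of detection. Epas1 (ENSMUSG00000024140, chr17:86753700-86833410, plus strand) stood at 0.0678, 0.0229 and 0.0410 TPM in the chloride libraries and at 0.0501, 0.0320 and 0.0741 TPM in the propionate libraries. These values rest on 5.65 to 21.1 estimated reads, the groups overlap, and the gene was below the minimum for testing. The third alpha subunit gene, Hif3a, named for its role, was listed at 0 in every chloride library and at 0.0180 ± 0.0213 TPM in propionate. Hif1a was thus the one alpha subunit gene with a mean above 1 TPM.

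Arnt, the constant partner of the alpha subunits, stood below the Hif1a level in every library. Arnt (ENSMUSG00000015522, chr3:95434388-95497589, plus strand) was at 11.2, 11.5 and 11.6 TPM in the chloride libraries and at 11.1, 11.4 and 10.4 TPM in the propionate libraries. Propionate 5 was the lowest of the 6. The means were 11.4 ± 0.203 and 11.0 ± 0.528 TPM, with a log2 difference of -0.052 (SE 0.070, 95% interval -0.22 to 0.11, limma adjusted p = 0.938). Its paralog Arnt2, named for its role, stood at 0.0141 ± 0.0140 and 0.0012 ± 0.0021 TPM and was not tested.

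The prolyl hydroxylases were ordered Egln1, Egln2, Egln3 in every library. Egln1 (ENSMUSG00000031987, chr8:124908564-124949324, minus strand), the main oxygen sensor of most cells, stood at 39.2, 32.1 and 33.4 TPM in the chloride libraries. In the propionate libraries it stood at 33.5, 34.8 and 34.2 TPM. Chloride 1 was the highest, and the other 5 values lay within a narrow band. The log2 difference was -0.025 (SE 0.083, 95% interval -0.22 to 0.17, limma adjusted p = 0.976), and without chloride 1 it was 0.059.

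Egln2 (ENSMUSG00000058709, chr7:27158658-27166802, minus strand), a hydroxylase that hypoxia is not known to induce, stood at 23.5, 20.9 and 24.9 TPM in the chloride libraries. In the propionate libraries it stood at 24.8, 24.2 and 22.3 TPM, inside the chloride range. The log2 difference was 0.041 (SE 0.083, 95% interval -0.16 to 0.24, limma adjusted p = 0.960). Egln3 (ENSMUSG00000035105, chr12:54178981-54203860, minus strand), the hydroxylase most strongly induced by the factors in many cells, was low. Its values were 2.98, 3.25 and 3.17 TPM in the chloride libraries and 3.31, 3.04 and 2.92 TPM in the propionate libraries, so that propionate held both the highest and the lowest. The log2 difference was -0.017 (SE 0.11, 95% interval -0.27 to 0.23, limma adjusted p = 0.989).

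Among the targets, Bnip3 and Vegfa were expressed at moderate levels in both salts. Bnip3 (ENSMUSG00000078566, chr7:138890836-138909519, minus strand) stood at 17.4, 17.7 and 15.6 TPM in the chloride libraries and at 17.0, 18.6 and 16.5 TPM in the propionate libraries. Chloride 3 was the lowest and propionate 4 the highest, with the rest between them. The means were 16.9 ± 1.13 and 17.4 ± 1.06 TPM, with a log2 difference of 0.036 (SE 0.079, 95% interval -0.15 to 0.22, limma adjusted p = 0.963).

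Vegfa (ENSMUSG00000023951, chr17:46016993-46032369, minus strand) stood at 8.69, 9.35 and 9.86 TPM in the chloride libraries. In the propionate libraries it stood at 9.80, 7.02 and 8.55 TPM. Propionate 4 was the lowest of the 6 and propionate 1 the second highest, so the salts overlapped and propionate was the more spread. The means were 9.30 ± 0.583 and 8.45 ± 1.39 TPM, and the log2 difference was -0.13 (SE 0.12, 95% interval -0.42 to 0.15, limma adjusted p = 0.932). This was the smallest adjusted p of the tested genes of the set. The difference was -0.019 without propionate 4 and -0.23 without propionate 1.

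Car9 was low and Adm was listed at 0. Car9 (ENSMUSG00000028463, chr4:43506966-43513729, plus strand) stood at 1.32, 1.71 and 1.16 TPM in the chloride libraries and at 1.77, 1.56 and 1.42 TPM in the propionate libraries, on 79.8 to 148 estimated reads. The propionate values lay in the upper part of the range but overlapped with chloride 2. The log2 difference was 0.11 (SE 0.16, 95% interval -0.26 to 0.48, limma adjusted p = 0.938), and -0.010 without chloride 3 and propionate 1. Gm12454 on the other strand, at 0.655 to 1.15 TPM, overlaps Car9, so the level of Car9 is uncertain. Adm (ENSMUSG00000030790, chr7:110627661-110629820, plus strand) was listed at 0 in all 6 libraries and was not tested. Whether this 0 is a failed estimate or a low level was not tested.

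**Figure D2:**
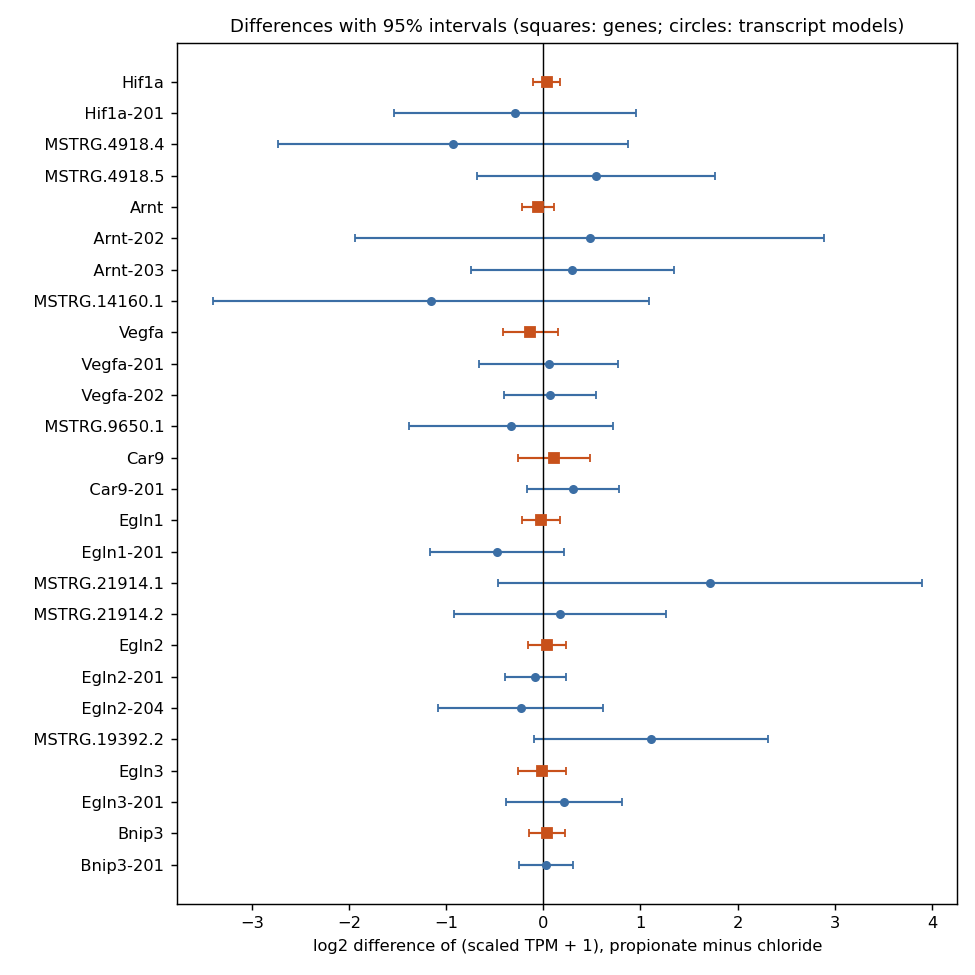
Log2 difference of (scaled TPM + 1), propionate minus chloride (x axis), with its 95% interval from limma, for the 8 tested genes (orange squares) and their 18 tested transcript models (blue circles, listed under their gene). The gene intervals are narrow and hold 0, and the intervals of most single models are several times wider and hold 0.

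The order of levels was Hif1a, Egln1, Egln2, Bnip3, Arnt, Vegfa, Egln3, Car9, Epas1 and Adm. TPM are corrected for transcript length but not for errors in how reads were assigned to genes, so levels are compared with that limit. The place of Car9 is uncertain because a gene on the other strand overlaps it. Whether the Adm value is a failed estimate or a low level was not tested, so its place is uncertain too. Over the 6 libraries no gene's range overlapped with that of the next gene in this order. By ratio the closest neighbours were Arnt and Vegfa, where the lowest Arnt value was 10.4 TPM and the highest Vegfa value 9.86 TPM. As ratios of TPM + 1, the 95% intervals of the 8 tested genes ran from 0.748 (Vegfa) to 1.40 (Car9). The pseudocount shrinks this ratio for weakly expressed genes such as Car9, so ratios of TPM itself can be larger. A smaller number of expressing cells and less RNA per cell cannot be told apart in such bulk samples.

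The reads of a gene were divided by StringTie among 57 models of the 10 genes, 48 from the reference and 9 assembled from reads. Of these, 9 were at 0 in all libraries, and 18 had a mean of at least 1 TPM and were tested in a limma fit over 35755 transcripts, of which 0.0364% were called, 0.0224% as higher and 0.014% as lower in propionate. Among the 18, 0 were called and 0 had an unadjusted p under 0.05, beside 4.58% of all transcripts. By sign 11 were higher in propionate and 7 lower, with adjusted p from 0.862 to 0.982. The groups did not overlap for 2 of the 18, both higher in propionate, and 12.3% of all transcripts had groups without overlap, 4.54% higher and 7.73% lower.

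The first of these was Car9-201, the 11-exon coding model of Car9. It stood at 0.931, 0.950 and 0.825 TPM in the chloride libraries and at 1.34, 1.32 and 1.40 TPM in the propionate libraries, a log2 difference of 0.31 (SE 0.19, limma adjusted p = 0.862). Every propionate value lay above every chloride value for this model, while the gene sums overlapped. The second was the assembled Egln2 model MSTRG.19392.2, at 0.904, 0.881 and 0 TPM in chloride and 4.49, 2.33 and 0.970 TPM in propionate, a log2 difference of 1.11 (SE 0.48, limma adjusted p = 0.862). The main Egln2 model, Egln2-201, stood at 20.8 ± 2.46 and 19.5 ± 1.22 TPM, and the short noncoding Egln2-204 at 1.40 ± 0.358 and 1.13 ± 0.798 TPM.

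Vegfa RNA was divided mainly between models that skip the exon of 132 bases printed above and models that hold it. Skipping gives the short, freely diffusible protein, and the exon gives the form that also binds heparin and neuropilin. The shares are of RNA models and include retained-intron models, Vegfa-205 and Vegfa-206 with the exon and Vegfa-210 without it. In single libraries Vegfa-205 made up at most 4.88% and Vegfa-210 at most 4.21% of Vegfa TPM. Models holding the exon made up 25.4%, 37.6% and 27.6% of Vegfa TPM in the chloride libraries and 33.7%, 39.2% and 30.8% in the propionate libraries. Chloride 1 and chloride 3 had the lowest shares, chloride 2 lay among the propionate values, and the groups overlapped. The shares were 30.2% ± 6.47 and 34.6% ± 4.31 (SD, n = 3), a difference of 4.37 points (exact two-sided permutation test, p = 0.4, where 3 against 3 cannot go below 0.1). Single libraries moved this difference: it was 1.97 points without chloride 1, 2.03 without propionate 4 and 8.04 without chloride 2.

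Models skipping the exon made up 68.4%, 60.7% and 71.5% in chloride and 61.9%, 59.6% and 63.0% in propionate (66.9% ± 5.53 against 61.5% ± 1.73, exact permutation p = 0.3). By TPM they were the larger part in all 6 libraries. Models that neither hold nor skip the exon made up 0.866% to 6.26%. Models with a further variable exon, of up to 72 bases, which marks the matrix-bound long form, made up at most 1.26% in any library.

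By model, Vegfa-201, which skips the exon, stood at 4.11, 1.68 and 2.13 TPM in the chloride libraries and at 2.38, 2.97 and 2.57 TPM in the propionate libraries. Vegfa-202, which holds it, stood at 2.07, 3.04 and 2.46 TPM and at 3.13, 2.61 and 2.32 TPM. The assembled MSTRG.9650.1 skips the exon and starts from another first exon, and stood at 1.67, 3.92 and 4.50 TPM and at 3.59, 1.11 and 2.72 TPM. Where MSTRG.9650.1 was low, in chloride 1 and propionate 4, Vegfa-201 was at its highest. Of the other 8 models, Vegfa-203 and Vegfa-204 were listed at 0 in all libraries. Vegfa-205, Vegfa-206, Vegfa-207, Vegfa-208, Vegfa-209 and Vegfa-210 each stayed at or below 0.499 TPM.

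Coverage of the exon of 132 bases, relative to the mean of 2 exons shared by the main models, was 0.649, 0.647 and 1.01 in the chloride libraries and 0.790, 0.548 and 0.680 in the propionate libraries. The groups overlapped (exact permutation p = 0.7, and 0.9 adjusted over 18 such coverage ratios). Chloride 3 alone had a ratio near 1, although models holding the exon made up 27.6% of its Vegfa TPM. In every library the ratio was at least 0.548, while models holding the exon made up at most 39.2% of Vegfa TPM. The coverage ratio and the TPM share thus differ on how much Vegfa RNA holds the exon, and the reason was not tested. The deposited exon coverage comes from the same division of reads among models, so it is no independent measure of the share.

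**Figure D3:**
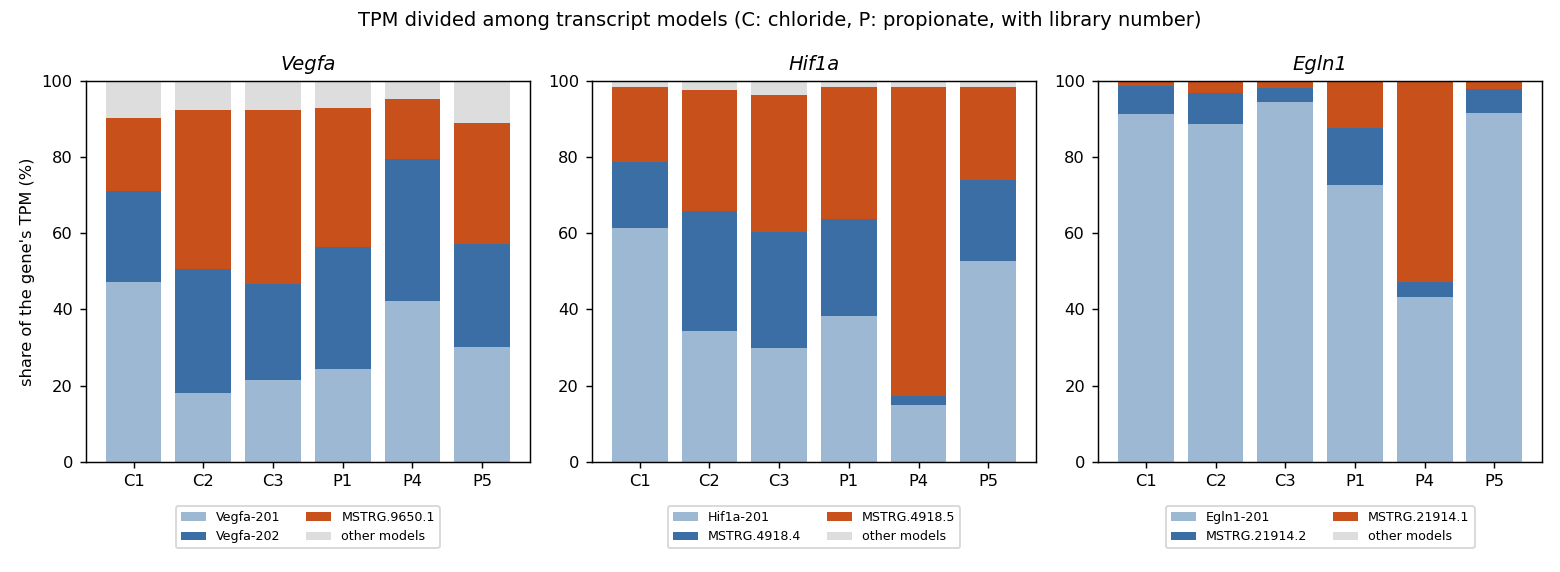
Share of the gene's TPM (y axis, percent, stacked to 100) in single transcript models of Vegfa, Hif1a and Egln1 in each library (x axis; C chloride, P propionate, with library number). The split varies between libraries of the same salt, and propionate 4 stands apart for Hif1a and Egln1.

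Hif1a had 3 models with a mean above 1 TPM, and their split was uneven between libraries although the gene total was steady. Hif1a-201 stood at 27.4, 15.7 and 12.8 TPM in the chloride libraries and at 16.8, 7.06 and 24.1 TPM in the propionate libraries. The assembled MSTRG.4918.4, which like Hif1a-201 holds the long exon 11, stood at 7.79, 14.5 and 13.2 TPM and at 11.1, 1.16 and 9.70 TPM. MSTRG.4918.5, which has the short exon 11, stood at 8.74, 14.6 and 15.6 TPM and at 15.2, 38.6 and 11.1 TPM. Propionate 4 was the lowest library for both long models and the highest for the short one.

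The short form of exon 11, which lacks the 42 capital bases shown above, made up 19.6%, 31.8% and 36.1% of Hif1a TPM in the chloride libraries. In the propionate libraries it made up 34.7%, 81.1% and 24.4%. The other 2 propionate libraries lay within the chloride range, and the groups overlapped (exact permutation p = 0.5). Among reference models, Hif1a-202 also has the short form and was listed at 0 throughout, so the share of the short form was that of 1 assembled model. The models differ further in an acceptor shifted by 3 bases and in total length. Hif1a-201 has 5365 bases, MSTRG.4918.4 has 5301 and MSTRG.4918.5 has 5222, each in 15 exons. The part of read assignment in the value of propionate 4 was not tested.

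Egln1 showed the same library apart. Egln1-201, its only reference model, held 91.4%, 88.6% and 94.6% of Egln1 TPM in the chloride libraries and 72.7%, 43.2% and 91.6% in the propionate libraries. The 7-exon assembled model MSTRG.21914.1 held 1.31%, 3.06% and 1.89% in chloride and 12.3%, 52.9% and 2.16% in propionate. In TPM this model was at 0.515, 0.983 and 0.632 against 4.12, 18.4 and 0.739, a log2 difference of 1.71 (SE 0.87, limma adjusted p = 0.862). The difference rested on propionate 1 and propionate 4, and propionate 5 lay inside the chloride range. The third model, MSTRG.21914.2, stood at 2.24 ± 0.931 and 2.83 ± 1.95 TPM.

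The reads of Arnt were also divided unevenly between near-identical models. Arnt-203 stood at 4.88, 2.97 and 3.91 TPM in the chloride libraries and at 9.15, 2.54 and 4.95 TPM in the propionate libraries. Arnt-202 was listed at 0 in chloride 1 and propionate 1 and at up to 5.12 TPM elsewhere, and MSTRG.14160.1 was listed at 0 in chloride 3, propionate 1 and propionate 5 and at up to 5.19 TPM elsewhere. The Arnt total varied only between 10.4 and 11.6 TPM over the same libraries. In Egln3, the assembled MSTRG.4763.2 was present only in chloride 3, at 1.57 TPM, where Egln3-201 was at 1.60 TPM, against 2.92 TPM or more in the other 5 libraries. Bnip3 had 1 leading model, Bnip3-201, at 16.4 ± 1.01 and 16.7 ± 1.27 TPM.

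Coverage was uneven along the exons. The last exon of Hif1a, of 2620 bases, which holds most of the 3′ untranslated region, was covered at 0.316 to 0.378 times the mean of the internal exons in the 6 libraries. Its first exon was covered at 0.193 to 0.294 times that mean. For Egln1 the first exon was at 0.124 to 0.158 and the last at 0.670 to 0.825, and for Egln2 the first exon was at 0.0934 to 0.172.

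None of the 18 ratios tested passed an adjusted p of 0.05, which 3 against 3 libraries could not reach, and the smallest exact permutation p belonged to a pair of them. The first exon of Arnt was at 0.178, 0.341 and 0.282 in chloride and 0.605, 0.352 and 0.514 in propionate (exact permutation p = 0.1, adjusted 0.9). The last exon of Bnip3 was at 0.847, 0.956 and 0.861 in chloride and 0.832, 0.832 and 0.717 in propionate (exact permutation p = 0.1, adjusted 0.9). Both p are the smallest that the design allows.

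**Figure D4:**
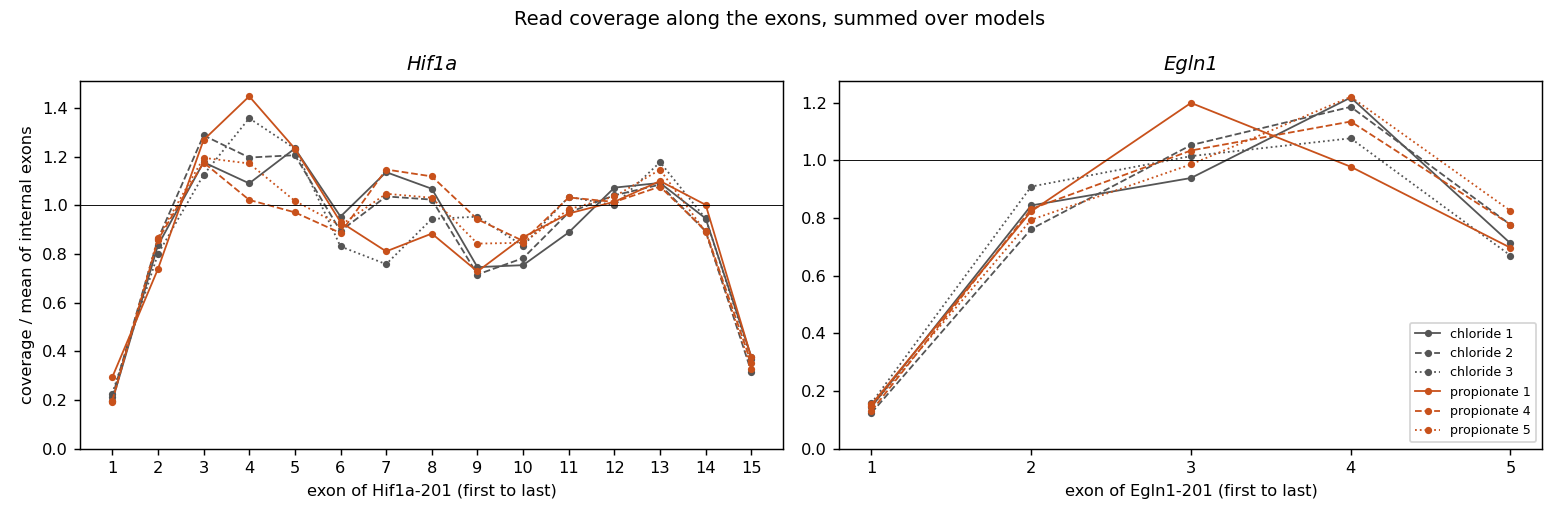
Read coverage of each exon of Hif1a-201 and Egln1-201 (x axis, first to last exon) divided by the mean of the internal exons (y axis, linear from 0; the thin line marks 1), summed over the models that share the exon, for 3 chloride (grey) and 3 propionate (orange) libraries. For both genes all 6 lines are low at the first exon and fall again at the last, to 0.316 to 0.378 for Hif1a and 0.670 to 0.825 for Egln1.

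The libraries in which Vegfa was high were compared with other genes by the Pearson correlation of log2(TPM + 1) over the 6 libraries, among 6793 protein-coding genes with a mean within 4-fold of that of Vegfa. The most alike were Pdzd2 (r = 0.987), Samd14 (r = 0.982) and Arhgef26 (r = 0.981), chosen as the highest of many and given as a description. The libraries shared their preparation protocol but held from 9.15 to 11.3 Gb, and the part of either in these correlations was not tested. Pdzd2 stood at 30.1, 31.3 and 31.4 TPM in chloride and at 32.4, 26.2 and 29.5 TPM in propionate. All 3 genes, like Vegfa, were lowest in propionate 4.

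Genes around the members were followed in 7 lists with 122 genes, of which 91 were tested. No listed gene was called, and 3 had an unadjusted p under 0.05 (3.30%, beside 5.14% of all genes), all higher in propionate. By sign 49 were higher and 42 lower, with a median log2 difference of 0.020 beside 0.0054 over all genes. Groups did not overlap for 11 genes higher in propionate (12.1%, beside 5.25% of all genes) and for 1 lower (1.10%, beside 6.48%). Together this was 13.2%, beside 11.7% of all genes in either direction.

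Of 18 tested genes for partners and turnover of the alpha subunit, 11 were higher and 7 lower by sign and 0 passed, with a median of 0.026. Hif1an, the asparaginyl hydroxylase that blocks coactivator binding, stood at 16.6 ± 1.14 and 17.0 ± 2.05 TPM. Vhl, which recognises the hydroxylated alpha subunit, stood at 23.9 ± 1.53 and 25.4 ± 1.25 TPM, and both were named for their roles. Cited2, which competes for the coactivator, stood at 15.6 ± 1.86 and 17.8 ± 1.46 TPM, and Siah1a, a ubiquitin ligase that degrades Egln proteins, at 19.0 ± 1.51 and 21.2 ± 0.374 TPM without overlap (limma adjusted p = 0.914 for both). The most abundant were Hsp90ab1 and Rack1. Hsp90ab1, a chaperone of the alpha subunit, stood at 1419 ± 164 and 1415 ± 46.7 TPM. Rack1, a ribosomal scaffold that also binds the alpha subunit, stood at 1784 ± 76.1 and 1938 ± 68.4 TPM without overlap (limma adjusted p = 0.914).

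Of 20 tested entries for glucose uptake and glycolysis, 11 were higher and 9 lower by sign and 0 passed, with a median of 0.024. Aldoa, an aldolase, stood at 292, 276 and 248 TPM in the chloride libraries and at 350.3, 307 and 293 TPM in the propionate libraries. The lowest propionate value lay just above the highest chloride value, with a log2 difference of 0.22 (SE 0.092, limma adjusted p = 0.914). A second entry of the same symbol stood at 18.7 ± 8.14 and 13.8 ± 5.65 TPM, and the 2 entries may share reads. Pgam1, a phosphoglycerate mutase, stood at 147 ± 3.13 and 159 ± 6.09 TPM without overlap (limma adjusted p = 0.914). Slc2a3, a glucose carrier named after its values were seen as the one gene of the list that was lower without overlap, stood at 51.7 ± 1.30 and 48.1 ± 1.52 TPM (log2 difference -0.10, limma adjusted p = 0.914). Pgk1, phosphoglycerate kinase, stood at 785 ± 37.8 and 824 ± 30.5 TPM and Ldha, lactate dehydrogenase, at 616 ± 12.2 and 630 ± 22.0 TPM. Slc2a1, the glucose carrier known as a target of the factors and named for its role, stood at 48.0 ± 3.51 and 47.5 ± 1.34 TPM. Gapdh, named after its values were seen, was listed at 33.2 ± 17.3 and 21.4 ± 1.77 TPM. Its chloride values were 23.1, 23.3 and 53.1 TPM, so chloride 3 stood apart. Several of the listed genes have near-identical pseudogenes that could take reads, which was not tested.

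Of 31 tested other targets, 12 were higher and 19 lower by sign and 0 passed, with a median of -0.022. Rora, a nuclear receptor, stood at 4.55, 4.83 and 3.54 TPM in the chloride libraries and at 5.75, 5.93 and 5.66 TPM in the propionate libraries. All 3 propionate values lay above the chloride values, with a log2 difference of 0.36 (SE 0.12, limma adjusted p = 0.914). Hilpda, a lipid droplet protein, stood at 32.0 ± 1.96 and 35.1 ± 0.283 TPM, without overlap and with a limma adjusted p of 0.914. Tfrc, the transferrin receptor, stood at 442 ± 22.4 and 429 ± 34.4 TPM. Ndrg1, Stc1, Stc2 and Cxcr4 were listed at 0 in every library.

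Of 5 tested genes of the VEGF family and receptors, 2 were higher and 3 lower by sign and 0 passed. The neuropilins, coreceptors for the Vegfa form with the printed exon, were the most abundant, with Nrp1 at 165 ± 4.14 and 163 ± 10.1 TPM and Nrp2 at 74.2 ± 2.39 and 71.1 ± 4.20 TPM. Flt1, the decoy and signalling receptor named for its role, stood at 17.6 ± 1.66 and 17.5 ± 0.391 TPM, and Vegfb, a related ligand, at 3.34 ± 0.518 and 3.92 ± 0.296 TPM. Kdr, the main signalling receptor for Vegfa on endothelium, was listed at 0 in all libraries, as were Vegfc and Flt4.

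Of 4 tested genes for the adrenomedullin receptor and processing, 3 were higher and 1 lower by sign and 0 passed. Pam, the enzyme that amidates the peptide, stood at 204 ± 8.72 and 218 ± 8.65 TPM, and Ackr3, a scavenger receptor, at 71.8 ± 2.67 and 75.9 ± 1.59 TPM. Calcrl, the receptor itself and named for its role, was below the minimum for testing at 0.421 ± 0.147 and 0.290 ± 0.0805 TPM.

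Of 10 tested mitophagy partners of Bnip3, 8 were higher and 2 lower by sign and 0 passed, with a median of 0.077. Map1lc3a, a ubiquitin-like protein of the autophagosome membrane, stood at 43.5, 46.7 and 43.8 TPM in the chloride libraries and at 51.6, 49.7 and 53.8 TPM in the propionate libraries. The groups did not overlap, with a log2 difference of 0.21 (SE 0.060, limma adjusted p = 0.914). Pink1, a kinase that marks damaged mitochondria, stood at 12.2 ± 0.469 and 14.4 ± 1.78 TPM. Sqstm1, an autophagy receptor, stood at 208 ± 3.70 and 220 ± 3.50 TPM without overlap (limma adjusted p = 0.914). Becn1, an initiator of autophagy, stood at 116 ± 8.89 and 123 ± 12.1 TPM. Bnip3l, the paralog of Bnip3 and named for its role, stood at 32.3 ± 2.27 and 32.9 ± 2.76 TPM, above Bnip3 itself.

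Of 5 tested carbonic anhydrases, 4 were higher and 1 lower by sign and 0 passed. Car6, in other tissues a secreted salivary enzyme, was the most abundant at 167 ± 17.6 and 171 ± 24.8 TPM. The mitochondrial Car5b stood at 13.3 ± 0.697 and 14.8 ± 0.794 TPM without overlap (limma adjusted p = 0.914), and the cytosolic Car13 at 9.24 ± 0.428 and 9.57 ± 0.678 TPM. Each of these stood above Car9, and Car1, Car4, Car8 and Car10 were listed at 0 in every library.

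**Figure D5:**
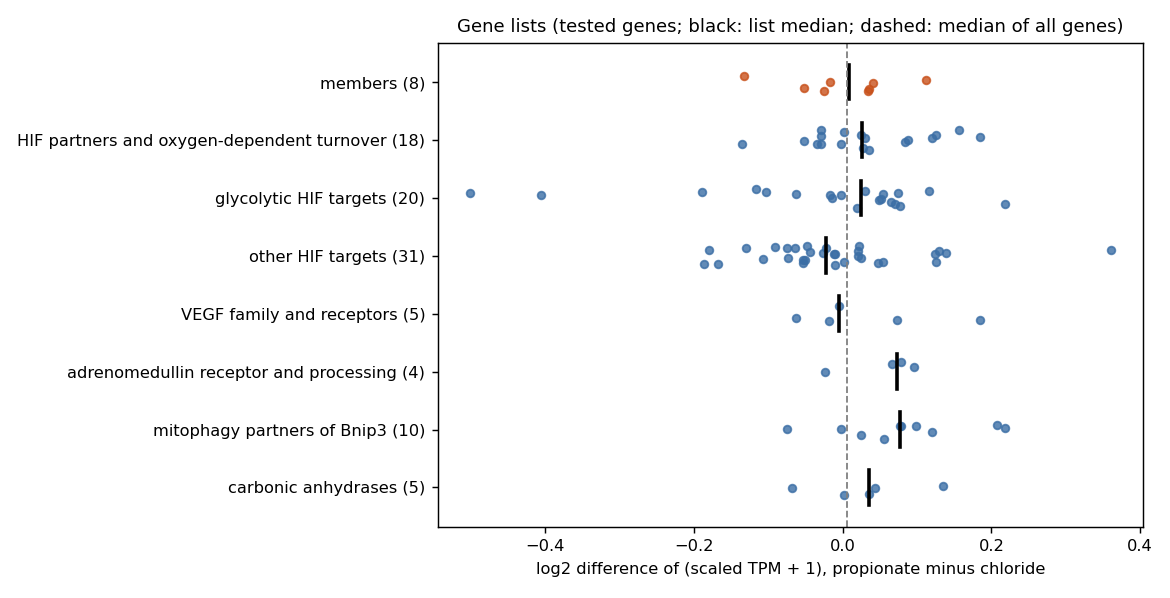
Log2 difference of (scaled TPM + 1), propionate minus chloride (x axis), of every tested gene (points) in the 10-gene set and 7 further lists (rows, with the number tested); black bars are list medians and the dashed line is the median of all genes. List medians lie between -0.022 and 0.077, and no point is past the threshold.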

How the data were processed

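Per the labels' protocols, RNA came from an RNeasy Mini Plus extraction and libraries from a stranded total RNA kit (TruSeq LT Gold). Tools named in the submitters' processing notes are bcl2fastq, fastp, HISAT2 and StringTie, with build mm10. Per the file headers, StringTie 2.1.1 estimated coverage, FPKM and TPM of a common set of 157296 transcript models (142491 reference, 14805 assembled) in each library. The deposited files hold these values and no read counts. The strand setting was not found in these sources. TPM were summed per reference gene, with 11710 assembled models joined to the gene sharing most exonic bases, and scaled by median ratios (factors 0.966 to 1.09). Reads per gene were taken as coverage times transcript length over a read length of 101.

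Features of at least 200 nt whose mean reached 1 TPM were tested on log2(TPM + 1) with limma 3.58.1 (variance trend) in R 4.3.3, two-sided, with Benjamini-Hochberg adjustment over all. The fit was tested on simulated data. Shares and coverage ratios were tested by exact permutation. Tables and plots used Python 3.11.15, pandas 2.3.3, numpy 2.4.6 and matplotlib 3.10.9. GENCODE M21 gave names and exons, and 1302 reference models were not in it. The members, lists and alternatives were chosen with earlier results of these data known. Named were all 10 genes, their models with a mean of at least 1 TPM, every Vegfa model and, per list, the 2 genes with the smallest p and the 2 highest, and other names are said to be outside this rule. A gene that this rule would name is not reported here.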

Additional observations from a re-analysis of the deposited data

How the results depend on the processing

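The counts of called members, models and list genes stayed at 0 under 18 other settings at gene level and 16 at transcript level. The count of models with an unadjusted limma p under 0.05 did not. It was 3 of 18 without propionate 5. It was 1 of 18 with quantile normalization, with voom, with no variance trend, without chloride 3, and without chloride 3 and propionate 1. Among the 91 tested list genes, the count with an unadjusted limma p under 0.05 also moved. It was 3 in the main fit, 2 with no variance trend and 11 with library weights. The shares of all genes under these other settings are not given here. Of 142 alternative values for the 8 tested members, 0 passed the threshold (smallest limma adjusted p 0.448) and 20 changed sign, at least 1 for each member. With TPM as deposited, where the median of all genes was -0.083, the log2 differences were -0.061 for Hif1a, -0.053 for Egln2 and -0.056 for Bnip3. With reference transcripts alone they were -0.31 for Hif1a, 0.36 for Arnt, 0.017 for Vegfa, -0.48 for Egln1, -0.081 for Egln2 and 0.21 for Egln3, since this setting drops reads given to assembled models, and the Vegfa exon share differed by -0.70 points. Library weights gave -0.0098 for Egln2 and -0.038 for Bnip3, and for Egln3 quantile normalization gave 0.026 and voom 0.043, while voom gave 0.42 for Car9. Without chloride 3 and propionate 1 the values were -0.010 for Car9 and -0.0042 for Bnip3. Leaving out 1 library changed the sign of Egln1 (chloride 1, range -0.081 to 0.059), Egln2 (chloride 2, -0.027 to 0.094), Egln3 (chloride 2 or propionate 5, -0.055 to 0.014) and Bnip3 (chloride 3 or propionate 4, -0.017 to 0.069), while it ran from 0.0036 to 0.064 for Hif1a (lowest without propionate 4), -0.079 to -0.017 for Arnt (nearest 0 without propionate 5) and 0.041 to 0.20 for Car9 (lowest without chloride 3, highest without chloride 2). No paired analysis was possible because the salts share only the library number 1. Levels near or below 1 TPM (Car9, Epas1) are limited by depth.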
